A study of Mus musculus with 8 samples.

Results

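The genes examined here encode the matrix metalloproteinases (MMPs), the ADAMTS and ADAMTS-like proteins, and the tissue inhibitors of metalloproteinases (TIMPs). They were taken by name, as every row whose symbol is Mmp, Adamts, Adamtsl or Timp followed by its number, and no measured value entered the choice. The rule found 51 of the 41325 listed genes, namely 23 MMP, 19 ADAMTS, 5 ADAMTS-like and 4 TIMP genes. The cells were C3H10T1/2, mouse mesenchymal stem cells (MSCs) in which a hormone mixture induces adipogenesis. RNA-seq was performed on control cells (shControl, genotype labelled WT) and on stable knockdown lines for the histone demethylase KDM4D (shKDM4D), the transcription factor NFIB (shNFIB) and the H3K4 methyltransferase MLL1 (shMLL1), to see what these proteins contribute to adipogenesis. Each line was sequenced at day 0, which is 2 days after confluence and before induction, and at day 5 after induction with insulin, dexamethasone and isobutylmethylxanthine, so that all day 5 cells shared that treatment. There was 1 library per condition and 8 in all. The knockdown lines were puromycin-resistant clones carrying an shRNA in pLKO.1, and which clone was sequenced is not given in the sources used here, so that clone and knockdown cannot be told apart.

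MMPs are zinc-dependent endopeptidases that cut collagens, proteoglycans and other matrix proteins, and most are made as inactive zymogens that must be cleaved or opened before they act. ADAMTS proteins are secreted relatives with thrombospondin repeats that cut proteoglycans such as aggrecan and versican or trim the ends of procollagens, while ADAMTS-like proteins have the same repeats but no protease domain. TIMPs bind the active site of these enzymes and block them, and in fat tissue both sides are known for their part in rebuilding the matrix around growing adipocytes.

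The files give RPKM, the reads of a gene divided by its exon length and by the depth of the library, so levels can be compared between genes per length. The values are whole multiples of what 1 read is worth, and the reads obtained from them amounted to 15800000 to 38200000 mapped reads per library (rounded), the shMLL1 libraries being the deepest. Ratios below are log2 ratios of RPKM with no pseudocount, and the range in parentheses is an exact 95% interval from the reads, which covers counting error only. As each condition has 1 library, no spread between cultures is known, and ratios within a line or between lines are given with no test. The change from day 0 to day 5 was tested across the 4 lines. A gene was called higher or lower when its RPKM differed by more than 2-fold, among the 11513 genes that passed an RPKM of 1 in 1 library or more. At day 0 the targeted gene Nfib was at 9.92 RPKM in control and 2.31 in shNFIB cells, and Kmt2a (MLL1) at 5.17 in control and 2.0 in shMLL1 cells, while Kdm4d was hardly detected at day 0 and had 0.235 in shControl and 0.0647 in shKDM4D cells at day 5. The summed RPKM of 7 adipocyte markers (Adipoq, Fabp4, Plin1, Cidec, Lpl, Cebpa and Pparg) lay between 4.09 and 10.9 at day 0 and was 777 for shControl, 38.6 for shKDM4D, 12.0 for shNFIB and 12.3 for shMLL1 at day 5, where none of the 7 was at 0. The 10 mesenchymal markers summed to 2303 to 3765, while the endothelial and epithelial lists stayed at or under 1.81. The 6 macrophage markers summed to 4.34 to 9.71. Of these, 1 or 2 were over an RPKM of 1 in each library, while Adgre1 was at 0 in 7 libraries. In these bulk libraries, fewer cells of a type and less RNA per cell cannot be told apart.

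Of the 51 genes, 26 passed that limit. These were 7 of the 23 MMP, 12 of the 19 ADAMTS, 4 of the 5 ADAMTS-like and 3 of the 4 TIMP genes. Timp2 was the most abundant in every library, with an RPKM of 269.7 to 587, and Mmp2 and Mmp14 were the most abundant MMPs in each library. Mmp2 and Mmp14 together made up 72.9% to 89.5% of the summed MMP values, and Adamts1 and Adamts5 made up 63.3% to 87.0% of the summed ADAMTS values. A gene that passed the limit only through a library where it was high had to differ between libraries, so the counts below describe the 26 genes and are no evidence about the families.

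**Figure D1:**
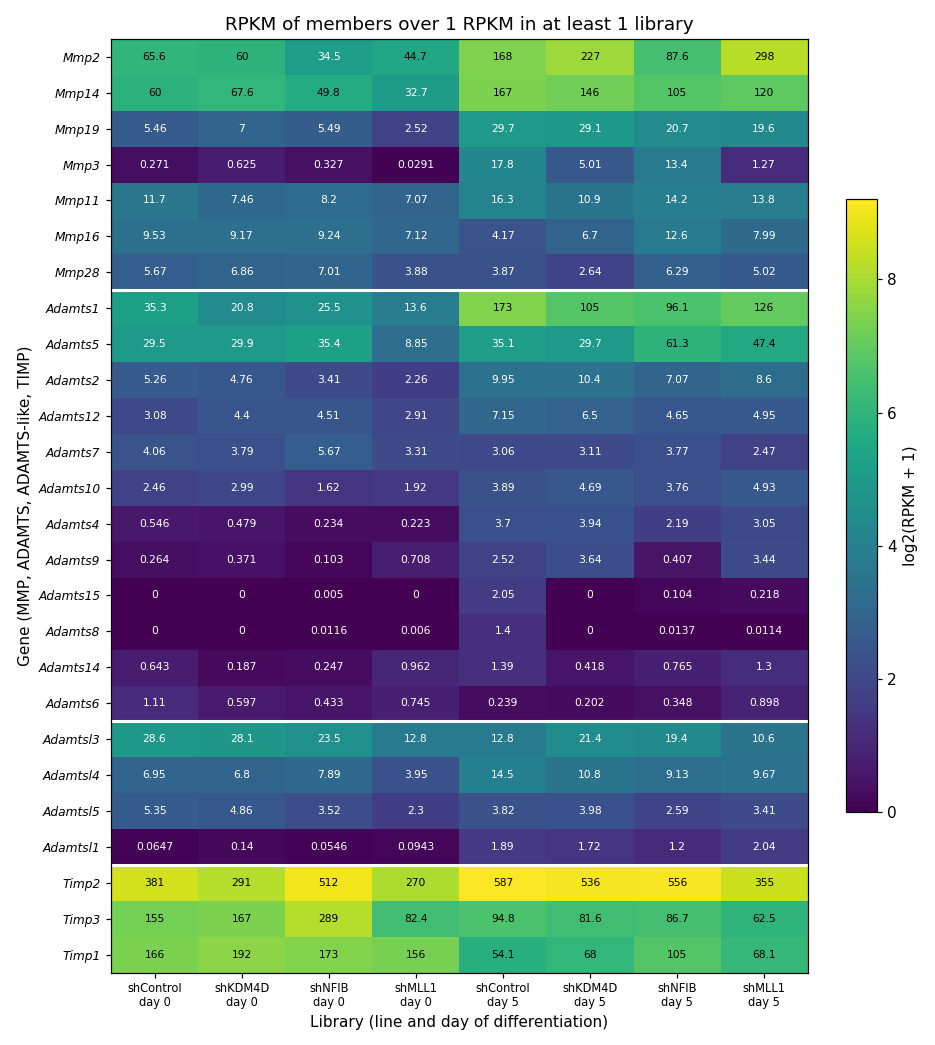
RPKM of the 26 expressed genes in the 8 libraries (columns, 4 lines at day 0 and then at day 5); the colour is log2(RPKM + 1) and the printed number is the RPKM, with 1 library per cell and no error. Timp2 is the brightest row in every library, and Adamts15 and Adamts8 are above 1 in shControl cells at day 5 only.

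The first comparison asked how these genes changed over differentiation within each line. From day 0 to day 5, 13 of the 26 genes were more than 2-fold higher and 4 lower in shControl cells, where 13.0% of all expressed genes were higher and 8.56% lower. In shKDM4D cells 10 were higher and 4 lower, against 12.8% and 8.44% of all genes. In shNFIB cells 12 were higher and 1 lower, against 12.6% and 4.96%. In shMLL1 cells 14 were higher and 1 lower, against 20.4% and 6.89%, and 1 of the 14, Adamts8, rested on 2 reads against 1. The same 8 genes were higher in all 4 lines, namely Mmp2, Mmp3, Mmp14, Mmp19, Adamts1, Adamts4, Adamts9 and Adamtsl1. Of these, Mmp3, Adamts4, Adamts9 and Adamtsl1 were under an RPKM of 1 in every day 0 library. Their rise was thus in part built in by the filter. How many of all expressed genes were higher in all 4 lines was not counted, so no share stands beside the 8. The median log2 ratio of the 26 genes was 0.99 for shControl, 0.65 for shKDM4D, 0.79 for shNFIB and 1.15 for shMLL1, and that of all expressed genes 0.03, 0.03, 0.10 and 0.17. With the all-gene median taken off, the median of the 26 genes was 0.96 for shControl, 0.62 for shKDM4D, 0.70 for shNFIB and 0.97 for shMLL1.

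The scale matters most for shNFIB and shMLL1 cells. Quantile normalization moved the all-gene median of the day 5 to day 0 ratio from 0.17 to -0.09 in shMLL1 cells and from 0.10 to -0.04 in shNFIB cells. Small changes in these lines are to be read against that shift, and a sign that another scaling turned is given beside its value.

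Across the 4 lines, 15 of the 26 genes were higher at day 5 and 4 lower, where 28.1% of all expressed genes were higher and 20.7% lower (21.6% and 27.1% with quantile normalization). The test was limma on log2(RPKM + 1) with the line as a block, which leaves 3 residual degrees of freedom, and a gene was called at a Benjamini-Hochberg adjusted p under 0.05 over the 11513 expressed genes. It asks for a change shared by the lines, 3 of which carry a knockdown. Its error is the spread of the change between the lines, which limma draws toward a trend fitted over all expressed genes. The SE and p-values therefore borrow from the other genes and rest on more than those 3 degrees of freedom. On this scale, which understates the change of low genes, limma gave 2.38 (SE 0.20, adjusted p = 0.000979) for Adamts1, higher in 4 of 4 lines, 2.11 (SE 0.14, adjusted p = 0.000817) for Mmp19, also in 4 of 4, and -1.25 (SE 0.16, adjusted p = 0.00243) for Timp1, lower in 4 of 4. Of the 19 genes called, 12 were called under each alternative run, namely the 8 genes above with Mmp11, Adamts2, Adamts10 and Timp1. The other 7 lost the call in some, and limma's adjusted p over the alternatives ran from 0.0198 to 0.0969 for Adamts12, 0.0263 to 0.383 for Adamts14, 0.00776 to 0.117 for Adamts7, 0.0295 to 0.2 for Adamtsl3, 0.011 to 0.0518 for Adamtsl4, 0.0238 to 0.118 for Timp2 and 0.0101 to 0.0501 for Timp3. Of these, Adamtsl4 lost it only without shControl and Timp3 only without shKDM4D cells, while the other 5 did so in several settings. Among the genes called higher, Mmp3, Adamts4, Adamts9, Adamtsl1 and Adamts14 were under an RPKM of 1 in every day 0 library. They passed the limit only through day 5, so that their rise was in part built in by the filter. They were still called in the run with no filter. That run refitted the same values of these genes among more genes, so it cannot show how far the filter shaped their rise. Adamts5, Adamts6, Adamts8, Adamts15, Adamtsl5, Mmp16 and Mmp28 did not pass, with limma estimates of -0.35 to 0.83, but Adamts6 passed as lower with quantile normalization (limma adjusted p = 0.0319) and Adamtsl5 as lower without shMLL1 cells (limma adjusted p = 0.0438).

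**Figure D2:**
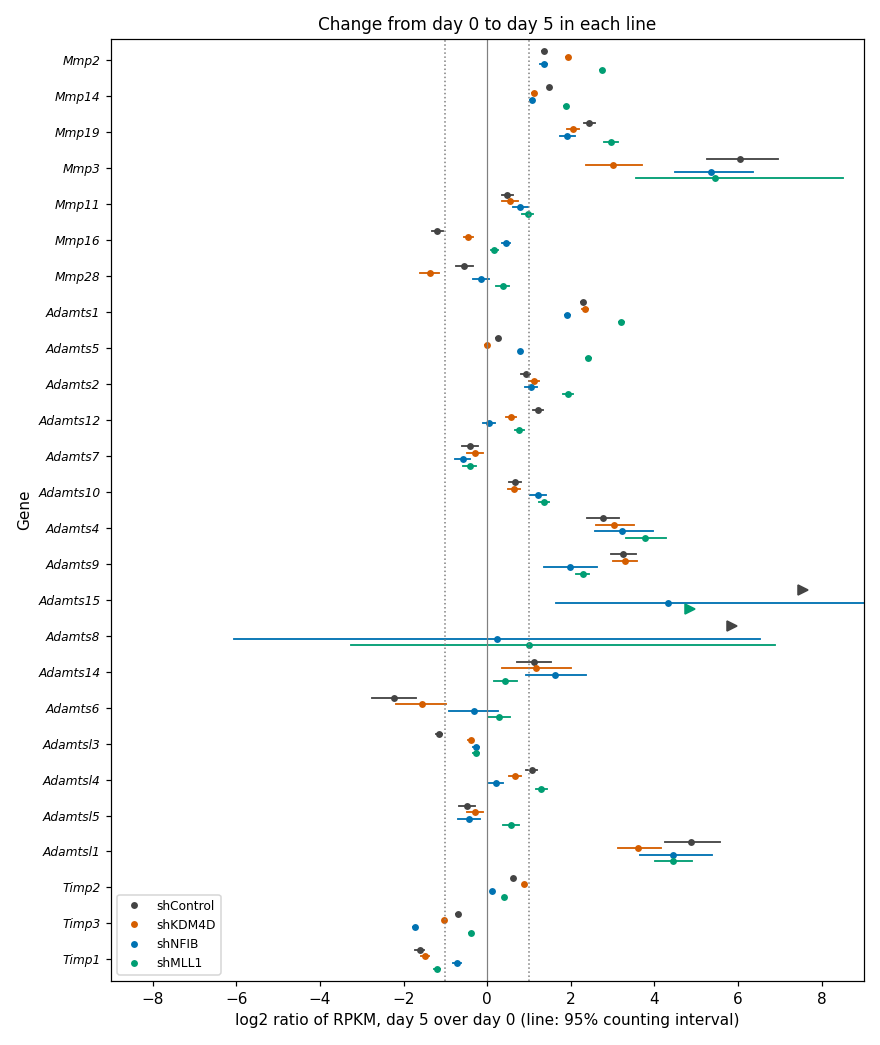
Log2 ratio of RPKM at day 5 over day 0 (horizontal axis) for the 26 genes in the 4 lines; points are single ratios, lines are 95% counting intervals cut at the axis, dotted lines mark 2-fold, and triangles are lower bounds where the day 0 library was at 0. Mmp3, Adamts4, Adamts9 and Adamtsl1 lie to the right of the 2-fold line in all 4 lines, and the 3 TIMPs lie near or to the left of 0 apart from Timp2.

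The second comparison set each knockdown line against shControl cells on the same day, and the 3 ratios of a day share the same shControl library. At day 0, 2 of the 26 genes were higher and 1 lower in shKDM4D cells, where 1.98% and 4.26% of all expressed genes were. In shNFIB cells 2 were higher and 4 lower (2.95% and 6.05% of all genes), and both of the higher ones, Adamts8 and Adamts15, rested on 1 read against 0. In shMLL1 cells 2 were higher and 8 lower (1.67% and 7.43% of all genes). Of these, Adamts8 again rested on 1 read against 0, and the 8 lower genes were Mmp3, Mmp19, Adamts1, Adamts2, Adamts4, Adamts5, Adamtsl3 and Adamtsl5. At day 5, 0 genes were higher and 4 lower in shKDM4D cells (1.88% and 4.57% of all genes), 1 and 3 in shNFIB cells (5.54% and 5.67%), and 1 and 3 in shMLL1 cells (5.25% and 4.02%). The lower genes of day 5 were Adamts14, Adamts15, Adamts8 and Mmp3 in shKDM4D, Adamts15, Adamts8 and Adamts9 in shNFIB and Adamts15, Adamts8 and Mmp3 in shMLL1 cells. Adamts15 and Adamts8 passed the RPKM limit only in shControl cells at day 5. That they were lower in the knockdown lines at day 5 thus follows from the filter, though not by how much. Over the 26 genes, the median log2 ratio to control was -0.03 for shKDM4D, -0.14 for shNFIB and -0.58 for shMLL1 at day 0, and -0.14, -0.51 and -0.26 at day 5. The same median over all expressed genes was -0.003, 0.03 and -0.07 at day 0, and 0.007, 0.09 and 0.07 at day 5.

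**Figure D3:**
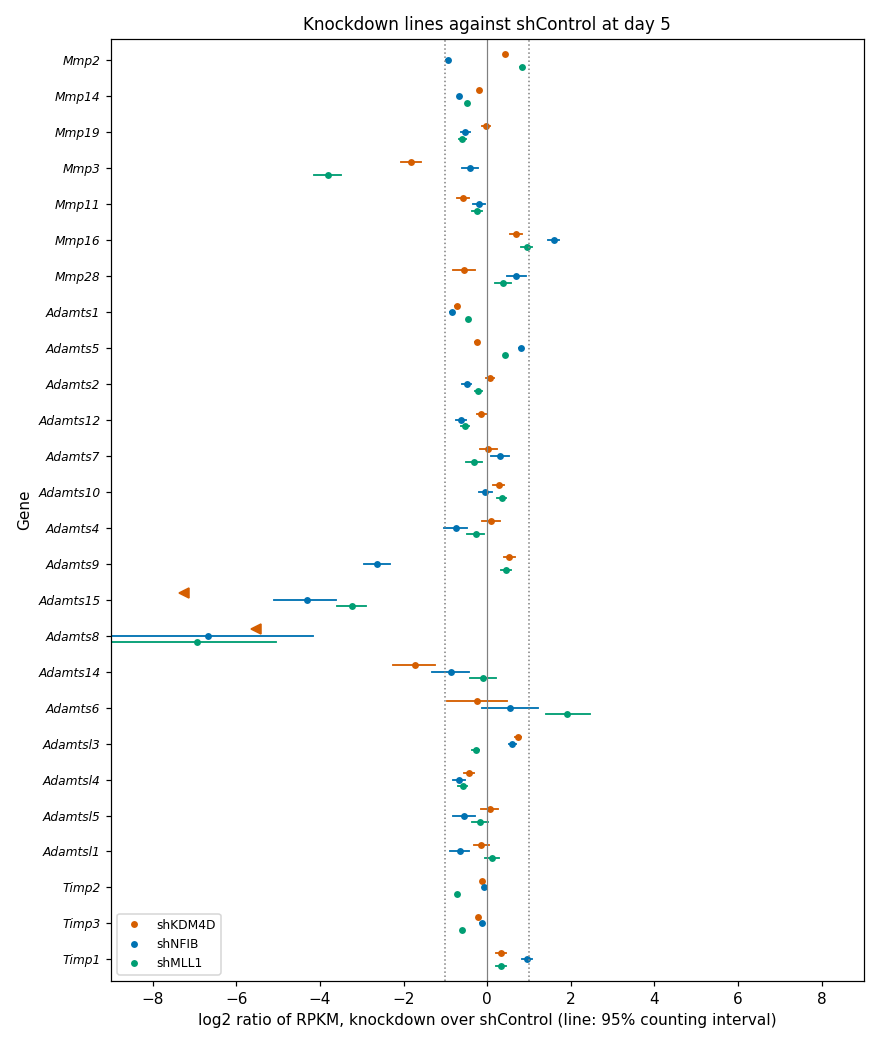
Log2 ratio of RPKM of each knockdown line over shControl cells at day 5 for the 26 genes; points are single ratios, lines are 95% counting intervals cut at the axis, dotted lines mark 2-fold and triangles are bounds where the knockdown library was at 0. Adamts15 and Adamts8 lie to the left of the 2-fold line in all 3 lines, Mmp3 is past the 2-fold line in shKDM4D and shMLL1 cells, and Mmp16 is past it to the right in shNFIB cells.

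Among the MMPs, the gelatinase gene Mmp2 (chromosome 8, 92827291 to 92853420, plus strand of GRCm38), whose enzyme cuts denatured and basement membrane collagen, had an RPKM of 65.6 for shControl, 60.0 for shKDM4D, 34.5 for shNFIB and 44.7 for shMLL1 at day 0. At day 5 Mmp2 stood at 168, 227, 87.6 and 298 in that order. All 4 lines were higher at day 5 than at day 0, and at day 5 the shMLL1 library was the highest and the shNFIB library the lowest. The log2 ratio of day 5 to day 0 was 1.36 (1.31 to 1.41) for shControl, 1.92 (1.87 to 1.97) for shKDM4D, 1.35 (1.27 to 1.42) for shNFIB and 2.74 (2.70 to 2.78) for shMLL1. Against shControl cells at day 5 it was 0.43 (0.40 to 0.47) for shKDM4D, -0.94 (-0.99 to -0.89) for shNFIB and 0.82 (0.79 to 0.86) for shMLL1, within 2-fold each time. At day 0 shNFIB cells were also below shControl cells, at a ratio of -0.93 (-1.0 to -0.86).

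Mmp14 (chromosome 14, 54431612 to 54445364, plus strand) encodes a membrane-bound collagenase that activates the Mmp2 product on the cell surface. Its RPKM was 60.0 for shControl, 67.6 for shKDM4D, 49.8 for shNFIB and 32.7 for shMLL1 at day 0. At day 5 Mmp14 stood at 167, 146, 105 and 119.7 in that order. It was higher at day 5 in each line, with log2 ratios of 1.48 for shControl, 1.11 for shKDM4D, 1.07 for shNFIB and 1.87 for shMLL1, and the shControl library was the highest of day 5. The day 5 ratios to shControl cells were -0.19 for shKDM4D, -0.67 for shNFIB and -0.48 for shMLL1. Mmp19, which encodes a secreted MMP of broad specificity and overlaps Tmem198b on the other strand, had an RPKM of 5.46 for shControl, 7.0 for shKDM4D, 5.49 for shNFIB and 2.52 for shMLL1 at day 0. At day 5 Mmp19 stood at 29.7, 29.1, 20.7 and 19.6 in that order. Its log2 ratios of day 5 to day 0 were 2.44 for shControl, 2.06 for shKDM4D, 1.92 for shNFIB and 2.96 for shMLL1, and shMLL1 cells were below shControl cells at day 0, at a ratio of -1.12 (-1.32 to -0.92).

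Mmp16 and Mmp28 went the other way in shControl cells. Mmp16 (chromosome 4, 17852893 to 18119145, plus strand), a membrane-type MMP, had an RPKM of 9.53 for shControl, 9.17 for shKDM4D, 9.24 for shNFIB and 7.12 for shMLL1 at day 0. At day 5 Mmp16 stood at 4.17, 6.70, 12.6 and 7.99 in that order. The 4 libraries of day 0 lay close together, while at day 5 shControl was the lowest and shNFIB the highest. Its log2 ratio of day 5 to day 0 was -1.19 (-1.32 to -1.07) for shControl, -0.45 (-0.56 to -0.34) for shKDM4D, 0.44 (0.34 to 0.54) for shNFIB and 0.17 (0.09 to 0.25) for shMLL1, and quantile normalization turned the shMLL1 value to -0.01. Against shControl cells at day 5 the ratio was 0.69 (0.55 to 0.82) for shKDM4D, 1.59 (1.46 to 1.72) for shNFIB and 0.94 (0.82 to 1.06) for shMLL1. Mmp28, which encodes epilysin and overlaps 1700020L24Rik on the other strand, had an RPKM of 5.67 for shControl, 6.86 for shKDM4D, 7.01 for shNFIB and 3.88 for shMLL1 at day 0. At day 5 Mmp28 stood at 3.87, 2.64, 6.29 and 5.02 in that order. It was past 2-fold only in shKDM4D cells, where the day 5 to day 0 ratio was -1.38 (-1.61 to -1.15). Mmp11, the stromelysin that is activated inside the cell, stayed between an RPKM of 7.07 and 16.3 and was past 2-fold in no comparison.

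The gene for stromelysin 1, Mmp3 (chromosome 9, 7445822 to 7455975, plus strand), which cuts proteoglycans and fibronectin and activates other MMPs, had the largest ratio of day 5 to day 0 among the MMPs of shControl cells. Its RPKM was 0.271 for shControl, 0.625 for shKDM4D, 0.327 for shNFIB and 0.0291 for shMLL1 at day 0. At day 5 Mmp3 stood at 17.8, 5.01, 13.4 and 1.27 in that order. These values stand for 13 reads for shControl, 22 for shKDM4D, 11 for shNFIB and 2 for shMLL1 at day 0, and 620, 195, 381 and 87 at day 5. All 4 lines were higher at day 5, but the shMLL1 library reached only 1.27 and the shKDM4D library was below those of shControl and shNFIB. The log2 ratio of day 5 to day 0 was 6.04 (5.25 to 6.96) for shControl, 3.0 (2.36 to 3.71) for shKDM4D, 5.35 (4.5 to 6.37) for shNFIB and 5.45 (3.55 to 8.51) for shMLL1. Against shControl cells at day 5 it was -1.83 (-2.07 to -1.60) for shKDM4D, -0.42 (-0.60 to -0.23) for shNFIB and -3.81 (-4.15 to -3.49) for shMLL1. Compared at day 0, where 22 reads or fewer covered it, the ratio was 1.21 (0.15 to 2.32) for shKDM4D, 0.27 (-1.03 to 1.55) for shNFIB and -3.22 (-6.41 to -1.08) for shMLL1. The summed adipocyte markers of the same day 5 libraries were 777, 38.6, 12.0 and 12.3 in the same order, an order that differs from that of Mmp3, where shNFIB stood above both shKDM4D and shMLL1, and their part in the result was not tested.

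Mmp3 lies in a cluster of 10 MMP genes on chromosome 9, from 7272514 to 7699585, with Mmp13, Mmp12, Mmp1b, Mmp1a, Mmp10, Mmp8, Mmp27, Mmp20 and Mmp7. It was the only gene of the cluster over an RPKM of 1 in any library. Mmp1a, Mmp1b and Mmp7 were at 0 in all 8 libraries, Mmp10, Mmp12 and Mmp20 had at most 1 or 2 reads, and Mmp8 and Mmp27 at most 10 and 23 reads. Mmp13, the collagenase gene next to them, had 4 reads for shControl, 2 for shKDM4D, 0 for shNFIB and 0 for shMLL1 at day 0, and 27, 9, 14 and 21 at day 5, so that its highest RPKM, in shControl cells at day 5, was 0.523. At day 5 the log2 ratio of Mmp13 to control was -1.75 (-3.02 to -0.61) for shKDM4D, -0.66 (-1.71 to 0.32) for shNFIB and -1.34 (-2.24 to -0.47) for shMLL1.

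The promoter windows of the cluster share sequence that the naming rule did not use. RefSeq windows (250 bases before to 50 after the annotated start, GRCm38.p6) were found for 36 of the 51 genes, 39 windows in all, and the AP-1 motif TGACTCA, read on both strands, was in 7 of the 39 and in 5.20% of the 32851 windows of all genes. The 7 windows belong to Mmp1a, Mmp1b, Mmp3, Mmp7, Mmp10, Mmp12 and Mmp13, all of them in the cluster. The TATA motif TATAAA was in 12 of the 39 windows, against 13.6% of all, the C/EBP motif TTGCNNAA in 6 (10.8%) and the NFI half-site TTGGCA in 5 (14.1%). All 4 motifs stood in the windows of Mmp3 and of Mmp7, which was at 0 in each library, and they did not overlap in either window. The windows of 4 neighbours on the plus strand are shown from 120 bases before the start to 50 after it, because they carry the same pair of motifs while only Mmp3 was expressed; capitals mark AP-1 (TGACTCA or its reverse complement TGAGTCA) and TATA.
Mmp3 (chr9:7445702-7445871): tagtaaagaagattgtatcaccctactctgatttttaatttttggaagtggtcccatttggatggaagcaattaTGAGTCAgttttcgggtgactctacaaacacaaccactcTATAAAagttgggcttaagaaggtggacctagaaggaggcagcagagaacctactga
Mmp13 (chr9:7272394-7272563): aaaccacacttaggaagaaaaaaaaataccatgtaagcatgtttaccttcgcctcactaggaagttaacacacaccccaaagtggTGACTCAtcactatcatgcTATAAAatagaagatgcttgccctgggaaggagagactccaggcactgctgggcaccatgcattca
Mmp10 (chr9:7502222-7502391): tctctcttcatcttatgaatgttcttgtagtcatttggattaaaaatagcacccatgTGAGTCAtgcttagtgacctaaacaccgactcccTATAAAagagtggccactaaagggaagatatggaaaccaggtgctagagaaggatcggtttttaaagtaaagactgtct
Mmp1a (chr9:7464021-7464190): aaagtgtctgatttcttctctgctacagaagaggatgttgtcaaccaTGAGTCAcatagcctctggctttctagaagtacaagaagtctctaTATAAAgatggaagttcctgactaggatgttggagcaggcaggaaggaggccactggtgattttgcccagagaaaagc

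The AP-1 motif stood 46 bases before the annotated start in Mmp3, 35 in Mmp13, 63 in Mmp10 and 73 in Mmp1a. With these letters in each window, the shControl reads at day 5 were 620 for Mmp3, 27 for Mmp13 and 0 for both Mmp10 and Mmp1a. Mmp1a is annotated as a polymorphic pseudogene, whereas Mmp3, Mmp13 and Mmp10 are annotated as protein-coding. A match is a description of the letters and shows neither binding nor a cause.

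**Figure D4:**
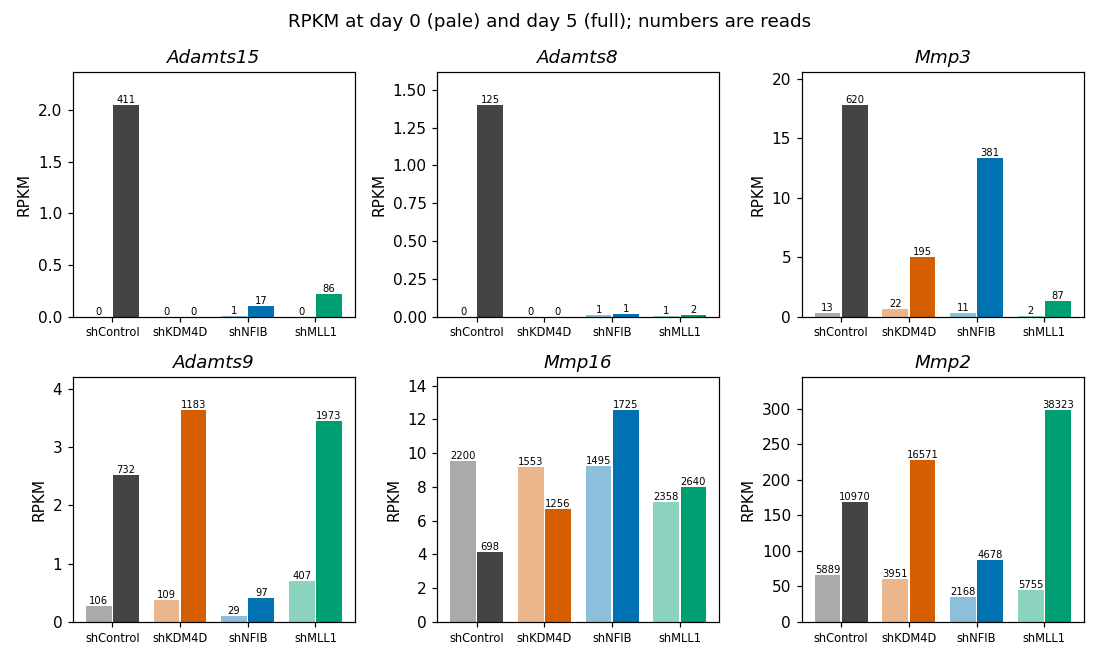
RPKM of Adamts15, Adamts8, Mmp3, Adamts9, Mmp16 and Mmp2 (vertical axes, each from 0) in the 4 lines at day 0 (pale bars) and day 5 (full bars), 1 library per bar, with the number of reads above each bar. The day 5 bar of shControl cells is the tallest for Adamts15, Adamts8 and Mmp3 and the shortest day 5 bar for Mmp16.

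Among the ADAMTS genes, Adamts15 and Adamts8 had the largest differences between the lines. Both encode proteases that cut aggrecan or versican. They are neighbours on chromosome 9, Adamts15 (30899155 to 30922452) on the minus and Adamts8 (30942562 to 30963838) on the plus strand, with 20.1 kb between their starts, from which they are read in opposite directions. Adamts15 had 0 reads for shControl, 0 for shKDM4D, 1 for shNFIB and 0 for shMLL1 at day 0, and 411, 0, 17 and 86 at day 5. Adamts8 had 0 reads for shControl, 0 for shKDM4D, 1 for shNFIB and 1 for shMLL1 at day 0, and 125, 0, 1 and 2 at day 5. Both were thus at 0 or 1 read in each library of day 0, and in shControl cells at day 5 they had RPKM values of 2.05 and 1.40. That was the only library in which either passed the RPKM limit, so the direction of the differences from it follows from the filter, and only their size does not.

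With 3 reads as the limit that 0 allows in the day 0 library, Adamts15 was at least 189-fold and Adamts8 at least 57.4-fold higher at day 5 in shControl cells. In shKDM4D cells neither gene had a read on either day, which at day 5 is at least 153-fold lower than shControl cells for Adamts15 and at least 46.6-fold lower for Adamts8. Adamts15 had a log2 ratio to shControl cells at day 5 of -4.31 (-5.10 to -3.61) in shNFIB and -3.24 (-3.59 to -2.90) in shMLL1 cells. That of Adamts8 was -6.68 (-11.99 to -4.17) and -6.95 (-10.01 to -5.06), each from 1 or 2 reads in the knockdown library. Adamts15 was still at least 28.7-fold higher at day 5 than at day 0 in shMLL1 cells, whereas Adamts8 in that line had 2 reads against 1.

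The summed adipocyte markers at day 5 were 777 for shControl, 38.6 for shKDM4D, 12.0 for shNFIB and 12.3 for shMLL1. They too were highest in shControl cells, the library through which both genes passed the filter. Among the knockdown lines the order was not the same, as shKDM4D cells had the highest marker sum and no read of either gene, and the part of the markers in the result was not tested. Within 200 kb of the pair, Zbtb44 had 1.56 to 3.31 RPKM over the 8 libraries, with 1.98 for shControl, 1.87 for shKDM4D, 1.76 for shNFIB and 1.75 for shMLL1 at day 5. Aplp2, in the same window, had an RPKM of 47.5 for shControl, 34.1 for shKDM4D, 44.4 for shNFIB and 27.1 for shMLL1 at day 0, and 183, 168, 133 and 93.1 at day 5, so that it too was higher at day 5 and highest in shControl cells. St14 had at most 0.0121 RPKM.

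Adamts1 and Adamts5, a second pair of neighbours (53.1 kb apart on chromosome 16, both on the minus strand), encode the most abundant proteoglycan-cutting ADAMTS enzymes of these cells. Adamts1 had an RPKM of 35.3 for shControl, 20.8 for shKDM4D, 25.5 for shNFIB and 13.6 for shMLL1 at day 0. At day 5 Adamts1 stood at 173, 105, 96.1 and 126 in that order. It was higher at day 5 in each line, with log2 ratios of 2.30 for shControl, 2.33 for shKDM4D, 1.91 for shNFIB and 3.21 for shMLL1, and the shControl library was the highest on both days. Its ratio to shControl cells was -0.76 for shKDM4D, -0.47 for shNFIB and -1.37 for shMLL1 at day 0, and -0.73 (-0.76 to -0.69), -0.85 (-0.89 to -0.81) and -0.46 (-0.49 to -0.43) at day 5. Adamts5 had an RPKM of 29.5 for shControl, 29.9 for shKDM4D, 35.4 for shNFIB and 8.85 for shMLL1 at day 0. At day 5 Adamts5 stood at 35.1, 29.7, 61.3 and 47.4 in that order. Day 5 over day 0 gave log2 ratios of 0.25 (0.20 to 0.29) for shControl, -0.01 (-0.06 to 0.04) for shKDM4D, 0.79 (0.75 to 0.83) for shNFIB and 2.42 (2.37 to 2.47) for shMLL1, so that the neighbour of Adamts1 was past 2-fold in shMLL1 cells only, and quantile normalization turned the shKDM4D value to 0.01. The shMLL1 library was the lowest at day 0, with a ratio to shControl cells of -1.74 (-1.79 to -1.68), and above shControl cells at day 5, with a ratio of 0.43 (0.40 to 0.47).

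Adamts4 and Adamts9 encode further aggrecan- and versican-cutting enzymes and were low at day 0. Adamts4 had an RPKM of 0.546 for shControl, 0.479 for shKDM4D, 0.234 for shNFIB and 0.223 for shMLL1 at day 0. At day 5 Adamts4 stood at 3.70, 3.94, 2.19 and 3.05 in that order. Its log2 ratio of day 5 to day 0 was 2.76 for shControl, 3.04 for shKDM4D, 3.23 for shNFIB and 3.77 for shMLL1. At day 0 it was below shControl cells in shNFIB cells, at -1.22 (-2.0 to -0.50), and in shMLL1 cells, at -1.29 (-1.88 to -0.72). Adamts9 (chromosome 6, 92772699 to 92943492, minus strand) had an RPKM of 0.264 for shControl, 0.371 for shKDM4D, 0.103 for shNFIB and 0.708 for shMLL1 at day 0. At day 5 Adamts9 stood at 2.52, 3.64, 0.407 and 3.44 in that order. The shNFIB library was the lowest on both days, and the other knockdown libraries were above shControl cells on both days. For Adamts9 the log2 ratio to shControl cells was 0.49 (0.09 to 0.89) for shKDM4D, -1.36 (-2.0 to -0.75) for shNFIB and 1.42 (1.11 to 1.74) for shMLL1 at day 0. At day 5 it was 0.53 (0.40 to 0.67) for shKDM4D, -2.63 (-2.95 to -2.32) for shNFIB and 0.45 (0.33 to 0.57) for shMLL1. Versican itself, one of its substrates, had an RPKM of 94.6 for shControl, 92.6 for shKDM4D, 31.2 for shNFIB and 67.1 for shMLL1 at day 5, so that shNFIB was the lowest there too.

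Of the procollagen N-proteinase genes, whose enzymes remove the amino-terminal propeptide of fibrillar collagens, Adamts2 had an RPKM of 5.26 for shControl, 4.76 for shKDM4D, 3.41 for shNFIB and 2.26 for shMLL1 at day 0. At day 5 Adamts2 stood at 9.95, 10.4, 7.07 and 8.60 in that order. It was higher at day 5 with log2 ratios of 0.92 for shControl, 1.12 for shKDM4D, 1.05 for shNFIB and 1.93 for shMLL1, and at day 0 shMLL1 cells were below shControl cells, at -1.22 (-1.35 to -1.09). Adamts14 had an RPKM of 0.643 for shControl, 0.187 for shKDM4D, 0.247 for shNFIB and 0.962 for shMLL1 at day 0. At day 5 Adamts14 stood at 1.39, 0.418, 0.765 and 1.30 in that order. Its log2 ratio of day 5 to day 0 was 1.12 for shControl, 1.16 for shKDM4D, 1.63 for shNFIB and 0.43 for shMLL1, the shMLL1 value turning to -0.32 with quantile normalization. The shKDM4D library was the lowest on both days, with ratios to shControl cells of -1.78 (-2.58 to -1.05) at day 0 and -1.74 (-2.24 to -1.25) at day 5. In shNFIB cells the ratios were -1.38 (-2.09 to -0.71) and -0.86 (-1.32 to -0.43), and in shMLL1 cells 0.58 (0.21 to 0.96) and -0.10 (-0.41 to 0.20). The third of these genes, Adamts3, had at most 1 read.

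The genes for enzymes that cut cartilage oligomeric matrix protein, Adamts7 and Adamts12, were moderately expressed. Adamts12 had an RPKM of 3.08 for shControl, 4.40 for shKDM4D, 4.51 for shNFIB and 2.91 for shMLL1 at day 0. At day 5 Adamts12 stood at 7.15, 6.5, 4.65 and 4.95 in that order. Its log2 ratios of day 5 to day 0 were 1.22 for shControl, 0.56 for shKDM4D, 0.04 for shNFIB and 0.77 for shMLL1, the shNFIB value turning to -0.05 with quantile normalization and to -0.03 with median-of-ratios scaling. Adamts7, which overlaps Tbc1d2b on the other strand, stayed between an RPKM of 2.47 and 5.67 and was past 2-fold in no comparison. Adamts10, whose product binds fibrillin, had an RPKM of 2.46 for shControl, 2.99 for shKDM4D, 1.62 for shNFIB and 1.92 for shMLL1 at day 0. At day 5 Adamts10 stood at 3.89, 4.69, 3.76 and 4.93 in that order. It was past 2-fold only from day 0 to day 5 in shNFIB cells, at 1.21 (1.02 to 1.41), and in shMLL1 cells, at 1.36 (1.25 to 1.48). Adamts6, a close relative of Adamts10, had an RPKM of 1.11 for shControl, 0.597 for shKDM4D, 0.433 for shNFIB and 0.745 for shMLL1 at day 0. At day 5 Adamts6 stood at 0.239, 0.202, 0.348 and 0.898 in that order. It was lower at day 5 in shControl and shKDM4D cells, while the shMLL1 library of day 5 was the highest of that day. It passed the RPKM limit only in shControl cells at day 0. That it was lower at day 5 in shControl cells, and lower in the knockdown lines at day 0, thus follows from the filter, though not by how much. For Adamts6 the log2 ratio of day 5 to day 0 was -2.22 (-2.77 to -1.71) for shControl, -1.57 (-2.18 to -0.98) for shKDM4D, -0.31 (-0.91 to 0.27) for shNFIB and 0.27 (0.01 to 0.53) for shMLL1, and quantile normalization turned the shMLL1 value to -0.58. Against shControl cells it was -0.90 for shKDM4D, -1.36 for shNFIB and -0.58 for shMLL1 at day 0 and -0.24 (-0.96 to 0.47) for shKDM4D, 0.54 (-0.13 to 1.22) for shNFIB and 1.91 (1.41 to 2.46) for shMLL1 at day 5, the last shKDM4D value turning to 0.03 with quantile normalization.

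Among the ADAMTS-like genes, Adamtsl3 was the most abundant in each library but shControl at day 5, where Adamtsl4 was higher. Adamtsl3 had an RPKM of 28.6 for shControl, 28.1 for shKDM4D, 23.5 for shNFIB and 12.8 for shMLL1 at day 0. At day 5 Adamtsl3 stood at 12.8, 21.4, 19.4 and 10.6 in that order. It was lower at day 5 in each line, past 2-fold in shControl cells only, with log2 ratios of -1.16 for shControl, -0.39 for shKDM4D, -0.28 for shNFIB and -0.27 for shMLL1. The shMLL1 library was the lowest on both days, and against shControl cells that gave -1.16 (-1.22 to -1.1) at day 0 and -0.27 (-0.36 to -0.19) at day 5. Adamtsl4, whose product binds fibrillin microfibrils, had an RPKM of 6.95 for shControl, 6.80 for shKDM4D, 7.89 for shNFIB and 3.95 for shMLL1 at day 0. At day 5 Adamtsl4 stood at 14.5, 10.8, 9.13 and 9.67 in that order. Its log2 ratio of day 5 to day 0 was 1.06 for shControl, 0.66 for shKDM4D, 0.21 for shNFIB and 1.29 for shMLL1. Adamtsl1 had an RPKM of 0.0647 for shControl, 0.140 for shKDM4D, 0.0546 for shNFIB and 0.0943 for shMLL1 at day 0. At day 5 Adamtsl1 stood at 1.89, 1.72, 1.2 and 2.04 in that order. Each line was more than 2-fold higher at day 5, with log2 ratios of 4.87 (4.25 to 5.56) for shControl, 3.61 (3.12 to 4.15) for shKDM4D, 4.46 (3.65 to 5.38) for shNFIB and 4.44 (4.01 to 4.90) for shMLL1. At day 5 its ratio to shControl cells was -0.14 for shKDM4D, -0.66 for shNFIB and 0.11 for shMLL1. Adamtsl5 had an RPKM of 5.35 for shControl, 4.86 for shKDM4D, 3.52 for shNFIB and 2.30 for shMLL1 at day 0. At day 5 Adamtsl5 stood at 3.82, 3.98, 2.59 and 3.41 in that order. It was past 2-fold only at day 0, where shMLL1 cells were at a ratio of -1.22 (-1.40 to -1.04) to shControl cells.

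Of the inhibitors, Timp1 and Timp3 were lower at day 5 in all 4 lines. Timp1 (chromosome X, 20870166 to 20874735, plus strand), which lies inside Syn1 on the other strand, had an RPKM of 166 for shControl, 192 for shKDM4D, 173 for shNFIB and 156 for shMLL1 at day 0. At day 5 Timp1 stood at 54.1, 68.0, 105 and 68.1 in that order. At day 5 shControl was the lowest and shNFIB the highest library. The log2 ratio of day 5 to day 0 was -1.61 (-1.72 to -1.51) for shControl, -1.5 (-1.59 to -1.40) for shKDM4D, -0.72 (-0.81 to -0.63) for shNFIB and -1.2 (-1.27 to -1.13) for shMLL1. Against shControl cells at day 5 it was 0.33 (0.21 to 0.45) for shKDM4D, 0.96 (0.84 to 1.08) for shNFIB and 0.33 (0.22 to 0.44) for shMLL1, while at day 0 it was 0.21 for shKDM4D, 0.06 for shNFIB and -0.09 for shMLL1. Timp3 (chromosome 10, 86300372 to 86349506, plus strand), which lies inside Syn3 on the other strand and whose product is bound to the matrix and also inhibits ADAMTS enzymes, had an RPKM of 155 for shControl, 167 for shKDM4D, 289 for shNFIB and 82.4 for shMLL1 at day 0. At day 5 Timp3 stood at 94.8, 81.6, 86.7 and 62.5 in that order. Its log2 ratios of day 5 to day 0 were -0.71 for shControl, -1.04 for shKDM4D, -1.74 for shNFIB and -0.40 for shMLL1. At day 0 the shNFIB library was the highest and the shMLL1 library the lowest, at 0.90 (0.88 to 0.92) and -0.91 (-0.93 to -0.89) against shControl cells, but at day 5 shNFIB cells were at -0.13 (-0.16 to -0.09).

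Timp2, the inhibitor that also takes part in the activation of the Mmp2 product by the Mmp14 product, had an RPKM of 381 for shControl, 291 for shKDM4D, 512 for shNFIB and 269.7 for shMLL1 at day 0. At day 5 Timp2 stood at 587, 536, 556 and 355 in that order. It was past 2-fold in no comparison. Its log2 ratio of day 5 to day 0 was 0.63 for shControl, 0.88 for shKDM4D, 0.12 for shNFIB and 0.40 for shMLL1, and quantile normalization turned the shNFIB value to -0.10. Timp2 overlaps Cep295nl on the same strand, and reads of the shared stretch could be counted for either gene. Timp4 had no read at day 0 in any line and 34 reads for shControl, 30 for shKDM4D, 3 for shNFIB and 34 for shMLL1 at day 5, an RPKM of at most 0.298.

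Summed over each family, the MMP values came to an RPKM of 159 for shControl, 159 for shKDM4D, 116 for shNFIB and 98.3 for shMLL1 at day 0, and 409.6, 429, 262 and 467 at day 5. The ADAMTS values came to 82.2 for shControl, 68.3 for shKDM4D, 77.2 for shNFIB and 35.5 for shMLL1 at day 0, and 244, 168, 181 and 203 at day 5. The TIMP values came to 701 for shControl, 649.6 for shKDM4D, 975 for shNFIB and 508 for shMLL1 at day 0, and 737, 686, 747 and 486 at day 5. The protease sums were thus higher at day 5 in each line, and the TIMP sum was lower at day 5 in shNFIB and shMLL1 cells and within 2-fold of day 0 in all 4. The TIMP sum was 4.42 times the MMP sum in shControl cells at day 0 and 1.80 times at day 5, 4.08 and 1.60 times in shKDM4D, 8.43 and 2.86 times in shNFIB, and 5.17 and 1.04 times in shMLL1 cells. The ratio was lower at day 5 in every line, highest in shNFIB cells on both days, and lowest in shMLL1 cells at day 5. These sums have no error and are levels of RNA. Timp2 made up 44.7% to 54.3% of the TIMP sum at day 0 and 73.1% to 79.7% at day 5, and nearly all of the rest was Timp1 and Timp3.

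**Figure D5:**
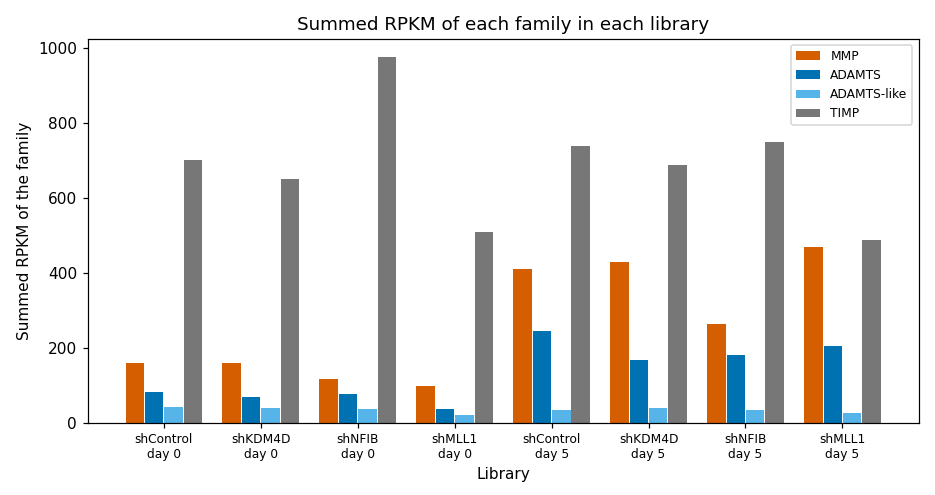
Summed RPKM of the MMP, ADAMTS, ADAMTS-like and TIMP genes (vertical axis, from 0) in each of the 8 libraries, 1 library per bar. The MMP and ADAMTS bars are taller at day 5 than at day 0 in each line, and the TIMP bar of shMLL1 cells is the shortest on both days.

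The other 25 genes had no RPKM over 1. Mmp1a, Mmp1b, Mmp7, Mmp21, Mmp25 and Adamts19 were at 0 in all 8 libraries. In the shallowest library, shNFIB at day 5, 3 reads of a gene with 1 kb of exons stand for an RPKM of 0.189, so that lower levels were not detectable there, and in the deepest, shMLL1 at day 0, for 0.0785. Mmp15, a membrane-type MMP, was the highest of the 25, with 18 reads for shControl, 15 for shKDM4D, 71 for shNFIB and 31 for shMLL1 at day 0, and 28, 38, 82 and 99 at day 5, and the shNFIB libraries were the highest on both days (0.705 and 0.959 RPKM). Against control, shNFIB cells had a log2 ratio of Mmp15 of 2.49 (1.73 to 3.33) on day 0 and, on day 5, of 1.84 (1.2 to 2.51). The gelatinase gene Mmp9 had 4 reads for shControl, 0 for shKDM4D, 1 for shNFIB and 0 for shMLL1 at day 0, and 54, 41, 13 and 31 at day 5, and was thus at 4 reads or fewer at day 0 and highest in shControl cells at day 5. Mmp24, another membrane-type MMP that overlaps BC029722 on the other strand, had 25 reads for shControl, 2 for shKDM4D, 12 for shNFIB and 3 for shMLL1 at day 0, and 21, 0, 5 and 0 at day 5. Adamts17 had at most 40 reads and Adamts16 at most 30, and for Mmp17, Mmp23, Adamts13, Adamts18, Adamts20 and Adamtsl2 the highest number in a library was 9, 11, 1, 2, 2 and 6.

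A list of 30 activators, other inhibitors and substrates of these enzymes was examined beside them, of which 20 were expressed. The counts past 2-fold from day 0 to day 5 were 6 higher and 1 lower (all genes 13.0% and 8.56%) for shControl, 5 higher and 3 lower (all genes 12.8% and 8.44%) for shKDM4D, 6 higher and 3 lower (all genes 12.6% and 4.96%) for shNFIB and 8 higher and 4 lower (all genes 20.4% and 6.89%) for shMLL1. Against control at day 0 the counts were 1 higher and 1 lower (all genes 1.98% and 4.26%) for shKDM4D, 3 higher and 4 lower (all genes 2.95% and 6.05%) for shNFIB and 0 higher and 6 lower (all genes 1.67% and 7.43%) for shMLL1. At day 5 they were 2 higher and 1 lower (all genes 1.88% and 4.57%) for shKDM4D, 3 higher and 3 lower (all genes 5.54% and 5.67%) for shNFIB and 1 higher and 1 lower (all genes 5.25% and 4.02%) for shMLL1. Thbs1, which encodes the matrix protein thrombospondin 1, was higher in each knockdown line at day 5, by a log2 ratio of 1.81 for shKDM4D, 2.10 for shNFIB and 1.66 for shMLL1. Fn1, which encodes fibronectin, had a ratio of -1.08 (-1.1 to -1.06) in shNFIB cells at day 5.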

How the data were processed

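RNA-seq covered 4 lines at 2 days, with 1 library per condition. The authors prepared libraries with the SMARTer Stranded kit, aligned the HiSeq reads to the GRCm38 (mm10) genome in CLC Genomics Workbench and deposited an RPKM for each gene and library; the annotation release and the strand setting of the counting are not given in the sources used here. The quantile normalization named in the study's methods is not visible in the deposited values and was tried as an alternative. Reads were recovered from RPKM with the union of the exons of each gene in GENCODE M21 (40823 of 41325 symbols matched): the most frequent low product of RPKM and length was taken as 1 read, and 96.2% to 96.6% of the values came out within 0.02 of a whole number. Of the 51 genes examined, 50 gave whole reads at the annotated length, and Adamts10 did so at 10906 bases in place of 8254, which was used. Log2 ratios were taken on RPKM with no pseudocount; a gene at 0 in only 1 library of a pair counted as past 2-fold, and a bound against 0 used 3 reads per library. The intervals are Clopper-Pearson intervals, conditional on the summed reads of both libraries, and PCR duplicates make them too narrow. Ratios within a line or between lines were not tested, while day 5 was tested against day 0 across the 4 lines with limma (line as block, trended variance) on log2(RPKM + 1), a test added after seeing the data. The reads step, calls, intervals and limma test were tested on simulated data. Every gene of the families with an RPKM over 1 in a library was named, with its 8 values where past 2-fold in at least 1 of the 10 comparisons; low genes that are given with reads were chosen after their values were seen. The genes, lists and motifs were chosen with earlier results of these data known. The alternatives were no filter on RPKM, RPKM + 1, quantile normalization and median-of-ratios scaling; a call that also needs an interval excluding 0 was added after seeing the data. No protein sequences were used. Tools were Python 3.11.15, scipy 1.17.1, numpy 2.4.6, pandas 2.3.3, matplotlib 3.10.9, R 4.3.3 and limma 3.58.1.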

Additional observations from a re-analysis of the deposited data

Results flagged for a closer look

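Genes are given here whose change from day 0 to day 5 went one way in shControl cells and the other way in a knockdown line, with both counting intervals clear of 0; with 1 library per condition the difference between the lines was not tested. Mmp16 had a log2 ratio of -1.19 in shControl, 0.44 in shNFIB and 0.17 in shMLL1 cells, the last of which quantile normalization turned to -0.01. Adamts6 had -2.22 in shControl and 0.27 in shMLL1 cells, the latter turning to -0.58 with quantile normalization. It passed the RPKM limit only in shControl cells at day 0, so the direction of its shControl change follows from the filter. Adamtsl5 had -0.48 and 0.57, and Mmp28 -0.55 and 0.37, in shControl and shMLL1 cells. The all-gene median of the shMLL1 comparison was 0.17.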

How the results depend on the processing

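Median-of-ratios scaling kept each of the 20 counts of higher or lower genes within 1.5 times. Of the 90 ratios past 2-fold, 87 stayed past it with that scaling, 81 with quantile normalization and 58 with RPKM + 1, and 0 of 255 ratios changed sign with RPKM + 1, 11 with quantile normalization and 3 with median-of-ratios scaling. With no filter on RPKM, genes of few reads were added and the counts from day 0 to day 5 were 25 higher and 5 lower in shControl, 19 higher and 6 lower in shKDM4D, 21 higher and 5 lower in shNFIB and 22 higher and 4 lower in shMLL1 cells. Against shControl cells they were 5 higher and 9 lower in shKDM4D, 6 higher and 8 lower in shNFIB and 4 higher and 14 lower in shMLL1 cells at day 0, and 2 higher and 13 lower, 4 higher and 12 lower and 1 higher and 12 lower at day 5. RPKM + 1 left 7 higher from day 0 to day 5 in shNFIB cells, 0 higher and 0 lower in shKDM4D, 0 higher and 0 lower in shNFIB and 0 higher and 3 lower in shMLL1 cells against shControl cells at day 0, and 0 higher in shMLL1 cells at day 5; a pseudocount shrinks the ratios of low genes by construction. Quantile normalization gave 3 lower in shNFIB and 2 lower in shMLL1 cells from day 0 to day 5, and 4 higher in shKDM4D cells at day 0, and turned the Adamts8 ratio of day 5 to day 0 in shMLL1 cells, which rests on 2 reads and 1 read, to -2.47; the cause was not tested. Asking also for an interval clear of 0, an alternative chosen after seeing the data, removed the calls on 1 read, leaving 0 higher in shNFIB and 1 higher in shMLL1 cells at day 0. For these alternatives to the 2-fold counts the share of all genes was not counted, so their counts have no background beside them. The limma test across the lines, with its alternatives, was added after seeing the data: without the replicate block for the line it called 13 of the genes higher and 2 lower, in place of 15 and 4. Of all expressed genes, 22.3% were then called higher and 15.4% lower. Leaving out each line in turn gave 11 to 14 higher and 2 to 4 lower. There were 2 lower without shControl, without shKDM4D and without shNFIB cells. Among all expressed genes, leaving out a line called 21.1% to 21.9% higher and 14.9% to 18% lower. A pseudocount of 0.1 gave 15 and 4, beside 29% and 21% of all expressed genes. With no filter, 17 and 3 of the 45 family genes tested were called, beside 14.2% and 9.58% of all 21492 genes tested. Quantile normalization gave 12 and 5, beside 21.6% and 27.1% of all expressed genes. The comparisons between lines have no pairs and no library that could be left out. Depth limits what can be said of the 25 genes with no RPKM over 1.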
